A study of Mus musculus with 8 samples.

Results

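Chemokine receptors were examined in 8 bulk tumors, as the 9 genes Ccr1, Ccr2, Ccr7, Cxcr2, Cxcr3, Cxcr4, Cxcr6, Cx3cr1 and Ackr3. They were chosen by gene symbol, and all 9 were found among the 27179 genes of the expression table, of which 25860 carry a symbol. The tumors were C26 colon carcinomas implanted under the skin of adult male CD2F1 mice. In 4 mice the cells were cxC26 scr, the cachexia-inducing C26 line carrying a scrambled guide RNA, and in 4 mice they were cxC26 IL6KOs1, a line grown from 1 single-cell clone whose Il6 gene had been disrupted by CRISPR/Cas9. The study's methods describe infection of the knockout cells with lentivirus carrying Cas9 and more than 1 guide against Il6. How the scrambled guide was delivered to cxC26 scr is not described separately. As a general rule of the study, mice were killed after a set loss of body weight. Its sequencing methods do not state the stage at which these tumors were taken. In other experiments of the study the knockout clone was implanted in larger numbers and collected later than cxC26 scr, and the corresponding numbers for the sequenced tumors are not given in the sources used here, so the loss of Il6, the clone and the age of the tumor cannot be told apart. The host mice kept an intact Il6 gene.

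Chemokine receptors are G-protein-coupled receptors that steer cell migration. A chemokine secreted by tumor, stromal or immune cells binds a receptor on a leukocyte, inhibitory G proteins are released, and the cell moves up the gradient until kinases and arrestins switch the receptor off. Each leukocyte class carries its own set. Ccr2 brings monocytes out of bone marrow, Ccr1 is carried by monocytes, macrophages and neutrophils, Cx3cr1 marks patrolling monocytes and many tissue macrophages, and Cxcr2 is the main attractant receptor of neutrophils. Cxcr3 and Cxcr6 are carried by activated and tissue-resident T cells and by natural killer (NK) cells, and Ccr7 brings dendritic cells and naive T cells to lymph nodes. Cxcr4 and Ackr3 both bind Cxcl12, Cxcr4 as a signalling receptor of many cell types and Ackr3 as an atypical receptor that removes the ligand.

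The depth was 14158989 to 17048062 gene reads per tumor. Expression is given as CPM, the reads of a gene scaled to library size, and 1 read was worth 0.0599 to 0.0722 CPM, which limits the precision of the rarest receptors. Il6 itself was counted 326 to 438 times per cxC26 scr tumor and 56 to 86 times per cxC26 IL6KOs1 tumor (log2 fold change -2.45, SE 0.165, limma adjusted p = 1.76e-06), with host cells and any transcript of the disrupted gene included. Of the markers of colon epithelium, Krt20 was high in all 8 tumors (log2 fold change 0.21, SE 0.0975, adjusted p = 0.102), whereas Epcam, Krt8 and Vil1 were below the expression filter and Epcam had 0 to 14 reads per tumor. The other 3 tested markers of that list differed between the groups, with Krt18 (3.20, adjusted p = 3.02e-06) and Cdh1 (1.46, adjusted p = 0.00251) called higher in cxC26 IL6KOs1 and Cdx2 called lower, at 17 to 34 reads per cxC26 scr tumor and 0 to 1 per cxC26 IL6KOs1 tumor. Cdx2 passed the expression filter only through cxC26 scr, so among tested genes it could only be lower. Fold changes below are on the log2 CPM scale, as cxC26 IL6KOs1 over cxC26 scr, and a gene was called when limma's adjusted p over the 13262 tested genes was under 0.05. To be tested, a gene had to reach 1 CPM in 4 or more tumors.

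Of the 9 receptors, 6 passed the filter on low expression, and 4 of these were called higher in the cxC26 IL6KOs1 tumors, namely Ccr2, Cx3cr1, Ackr3 and Cxcr6. Over all tested genes 19.1% were called higher and 20.7% lower. No receptor of the 9 was called lower by limma (0 at an unadjusted p under 0.05, and 0 with limma-voom weights). Cxcr6 passed the filter only through the cxC26 IL6KOs1 tumors, where 4 of 4 reached 1 CPM against 0 of 4 cxC26 scr tumors, so among tested genes it could only be higher. Ccr7, Cxcr3 and Cxcr2 stayed below the filter. The 8 values of 6 receptors, Ccr2, Ccr7, Cxcr3, Cxcr6, Cx3cr1 and Ackr3, did not overlap between the groups and were higher in cxC26 IL6KOs1. Of these Ccr7 and Cxcr3 were not tested, and the share of genes without overlap that were higher is known here for tested genes, at 17.8%. In bulk RNA, a change in the number of cells of a type and a change in RNA per cell cannot be told apart.

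**Figure D1:**
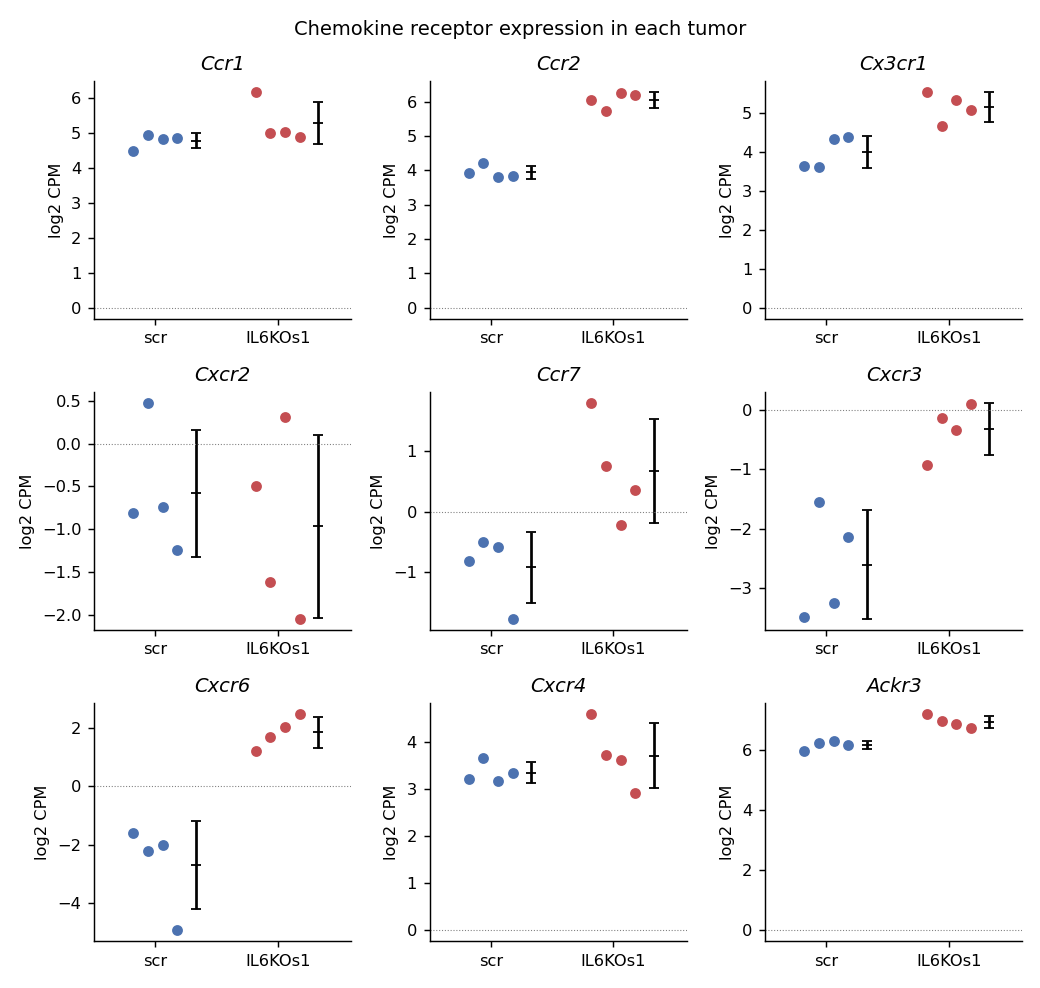
Expression of the 9 chemokine receptors in each tumor, as log2 CPM on the vertical axis, with 1 point per tumor (blue cxC26 scr, red cxC26 IL6KOs1, tumors 1 to 4 from left to right), and the mean and SD of the 4 tumors beside the points. The dotted line is 1 CPM, and the scales differ between panels. Ccr2 sits at 3.79 to 4.21 in cxC26 scr and at 5.72 to 6.24 in cxC26 IL6KOs1, whereas Cxcr2 overlaps between the groups.

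The sequences around the start sites of Ccr2, Cxcr6 and Ackr3 are shown because these are the called receptors with the smallest adjusted p, the largest fold change and the highest level per length. Each is the RefSeq promoter window of 300 bases on GRCm38.p6, 250 before and 50 after an annotated start, read 5′ to 3′ on the strand of the gene, and capitals mark the box bound by Sp1 (GGGCGG) and the box bound by the general transcription machinery (TATAAA), searched on both strands.
Ccr2 (chr9:124101933-124102232, plus strand): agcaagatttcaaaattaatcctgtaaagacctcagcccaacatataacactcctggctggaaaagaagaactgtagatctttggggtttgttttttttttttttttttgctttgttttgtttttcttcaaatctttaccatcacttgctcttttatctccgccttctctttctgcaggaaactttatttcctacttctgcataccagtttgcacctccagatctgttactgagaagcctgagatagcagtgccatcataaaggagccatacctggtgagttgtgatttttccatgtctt
Cxcr6 (chr9:123806227-123806526, plus strand): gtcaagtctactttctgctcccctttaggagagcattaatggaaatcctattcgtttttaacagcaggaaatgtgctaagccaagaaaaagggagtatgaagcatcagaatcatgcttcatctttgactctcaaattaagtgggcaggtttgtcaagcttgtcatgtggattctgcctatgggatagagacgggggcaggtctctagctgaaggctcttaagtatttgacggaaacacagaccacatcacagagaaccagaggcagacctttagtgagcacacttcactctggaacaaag
Ackr3 (chr1:90203730-90204029, plus strand): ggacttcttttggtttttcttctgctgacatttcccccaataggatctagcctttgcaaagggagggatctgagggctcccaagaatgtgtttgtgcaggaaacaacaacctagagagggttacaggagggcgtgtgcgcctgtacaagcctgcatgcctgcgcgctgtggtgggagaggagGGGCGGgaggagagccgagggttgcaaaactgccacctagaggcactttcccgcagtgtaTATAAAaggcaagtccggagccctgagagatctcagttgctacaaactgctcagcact

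The window of Ccr2 belongs to a start inside the span of the gene given below. RefSeq promoter windows were matched for 8 of the 9 receptors. GGGCGG was present in the windows of Ackr3 and Cxcr4 and in 35.7% of 32851 mouse promoters, and TATAAA was also present in those of Ackr3 and Cxcr4 and in 13.6% of promoters. The windows of Ccr1 and Ccr2 each held 1 CpG (5.43% of promoters had fewer, and the median was 7), that of Cxcr6 held 3, that of Ackr3 held 8 and that of Cxcr4 held 20. Neither TTCNNNGAA, the STAT consensus (8.30% of promoters), nor the interferon-stimulated response motif, GAAA repeated after 2 bases (3.44% of promoters), was present in any of the 8 windows. GAGGAAGT, an ETS motif of the PU.1 type, was present in the window of Cxcr3 and in 3.20% of promoters, and ACGTG, the core of the hypoxia response element, was present in none of the 8 and in 19.6% of promoters. These matches are descriptions of the windows, and binding was not measured.

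Ccr2, the receptor of inflammatory monocytes, had the smallest adjusted p of the 9. Its gene lies at chr9:124101918-124109140. The 4 cxC26 scr tumors held 254, 299, 197 and 221 reads of it, and the 4 cxC26 IL6KOs1 tumors held 1072, 728, 1193 and 1060. Every cxC26 IL6KOs1 tumor was above every cxC26 scr tumor. Mean log2 CPM was 3.95 ± 0.18 (SD, n = 4) in cxC26 scr and 6.05 ± 0.24 (SD, n = 4) in cxC26 IL6KOs1, a 4.30-fold difference (log2 fold change 2.10, SE 0.135, limma adjusted p = 1.34e-06). Of its sequence stretches of 75 bases, 1.16% also occur in another gene.

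Cx3cr1, the fractalkine receptor (chr9:120048683-120068296), rose by a smaller amount. In cxC26 scr it had 209, 199, 284 and 321 reads, and in cxC26 IL6KOs1 it had 757, 351, 630 and 488. The groups did not overlap, although cxC26 IL6KOs1 tumor 2 was close to the highest cxC26 scr tumor on the log2 CPM scale (4.67 and 4.38). Mean log2 CPM was 4.00 ± 0.41 and 5.15 ± 0.38 (SD, n = 4 each), a 2.23-fold difference (log2 fold change 1.16, SE 0.219, limma adjusted p = 0.00162). Cx3cr1 overlaps the gene model Gm33858, and counting by strand is not given in the sources used here.

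Ccr1, which binds Ccl3, Ccl5, Ccl6 and Ccl9 (chr9:123962126-123968692), did not pass the test. Its reads were 371, 493, 404 and 444 in cxC26 scr and 1163, 441, 510 and 428 in cxC26 IL6KOs1. A single tumor, cxC26 IL6KOs1 tumor 1, stood at 6.16 log2 CPM while the other 3 of its group were at 4.89 to 5.02, beside 4.48 to 4.93 in cxC26 scr. The log2 fold change was 0.49 (SE 0.241, limma adjusted p = 0.126) and was 0.19 (SE 0.125, adjusted p = 0.242) without that tumor.

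Cxcr2, the neutrophil receptor for Cxcl1, Cxcl2 and Cxcl5 (chr1:74153994-74161246), was rare in both groups. It had 9, 22, 8 and 6 reads in cxC26 scr and 11, 4, 19 and 3 reads in cxC26 IL6KOs1. The groups overlapped in part, between -1.24 and 0.48 log2 CPM in cxC26 scr and between -2.05 and 0.31 in cxC26 IL6KOs1. The pooled CPM ratio of cxC26 IL6KOs1 to cxC26 scr was 0.851 (95% exact binomial interval 0.536 to 1.35, counting error only), and the difference of -0.38 in mean log2 CPM had a two-sided exact permutation p = 0.571. A difference in Cxcr2 was not detectable at this depth.

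Cxcr6, the receptor for the membrane-bound chemokine Cxcl16 (chr9:123806477-123811754), had the largest fold change of the 9. Counts were 5, 3, 3 and 0 reads in cxC26 scr, and in cxC26 IL6KOs1 they were 37, 45, 64 and 81 reads. The count of 0 in cxC26 scr tumor 4 allows up to 3 reads, or 0.195 CPM. Pooled over each group the counts were 11 and 227, a CPM ratio of 21.4 (95% exact binomial interval 11.7 to 43.4, counting error only). The fitted log2 fold change was 4.56 (SE 0.656, limma adjusted p = 0.000314) and depends on the offset of 0.5 reads in the deposited values. Cxcr6 lies within the span of Fyco1, a vesicle transport gene, for which limma gave a log2 fold change of 0.03 (SE 0.0991, adjusted p = 0.851).

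Cxcr3, the receptor for the interferon-induced chemokines Cxcl9, Cxcl10 and Cxcl11 (chrX:101731535-101734147), was also near the limit of detection. Reads were 1, 5, 1 and 3 in cxC26 scr and 8, 12, 12 and 15 in cxC26 IL6KOs1. All 4 cxC26 IL6KOs1 tumors were above all 4 cxC26 scr tumors, and the pooled counts of 10 and 47 gave a CPM ratio of 4.87 (95% exact binomial interval 2.43 to 10.8, counting error only). In a limma fit without the expression filter Cxcr3 was called higher (difference 2.27, SE 0.597, adjusted p = 0.0318), where 7.77% of all 27179 genes were called higher.

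Ccr7, the lymph node homing receptor (chr11:99144199-99155077), had 9, 11, 9 and 4 reads in cxC26 scr and 56, 23, 13 and 18 reads in cxC26 IL6KOs1. The groups did not overlap on the log2 CPM scale, at -1.77 to -0.49 against -0.22 to 1.80, and cxC26 IL6KOs1 tumor 1 was the highest. The pooled CPM ratio was 3.45 (95% exact binomial interval 2.32 to 5.26, counting error only), from 33 and 110 reads. The difference of 1.59 in mean log2 CPM was 1.21 without cxC26 IL6KOs1 tumor 1. It had an exact permutation p = 0.0286 (two-sided, the smallest that 4 against 4 tumors allow), and in the limma fit without the filter Ccr7 was not called (adjusted p = 0.0844).

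Of the Cxcl12 receptors, Ackr3 rose and Cxcr4 did not pass the test. Ackr3 (chr1:90203980-90215724) had 1034, 1199, 1106 and 1110 reads in cxC26 scr and 2365, 1713, 1846 and 1517 reads in cxC26 IL6KOs1. The 2 groups were well separated, at 5.95 to 6.28 and 6.71 to 7.19 log2 CPM, and the fold was the smallest of the 4 called receptors, 1.71 (log2 fold change 0.77, SE 0.110, limma adjusted p = 0.000289). Cxcr4 (chr1:128588199-128592299) had 156, 204, 129 and 157 reads in cxC26 scr and 394, 183, 193 and 109 reads in cxC26 IL6KOs1. Its highest and its lowest value over the 8 tumors both belonged to cxC26 IL6KOs1, at 4.60 and 2.92 log2 CPM. The log2 fold change of Cxcr4 was 0.36 (SE 0.282, limma adjusted p = 0.335) and was 0.06 (adjusted p = 0.831) without cxC26 IL6KOs1 tumor 1. Around both genes the tested genes were on average lower in cxC26 IL6KOs1, with a median log2 fold change of -0.38 within 5 Mb of Ackr3 (67 genes), -0.31 within 5 Mb of Cxcr4 (44 genes) and -0.34 over chromosome 1, and the part of this in either value was not tested.

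The order of the receptors by level was compared as CPM per kb of exon. Ackr3 was the highest in both groups, at 21.3 ± 2.02 CPM per kb in cxC26 scr and 36.7 ± 5.11 in cxC26 IL6KOs1 (SD, n = 4 each), and its level made up 49.2% and 45.5% of the summed level of the 9 receptors. In cxC26 scr it was followed by Ccr1 at 9.70, Cxcr4 at 5.70, Cx3cr1 at 3.64 and Ccr2 at 2.29 CPM per kb, and Cx3cr1 overlapped with Ccr2. In cxC26 IL6KOs1 the levels of Ccr1 (14.6 CPM per kb), Ccr2 (9.89), Cx3cr1 (8.08) and Cxcr4 (7.91) overlapped with their neighbours in the order. Ccr2 made up 5.28% of the summed level in cxC26 scr and 12.3% in cxC26 IL6KOs1. The other 4 receptors were at or below 0.267 CPM per kb on average in cxC26 scr, and there Ccr7, Cxcr2, Cxcr3 and Cxcr6 each overlapped with the next. In cxC26 IL6KOs1 Cxcr6 reached 1.96 CPM per kb and lay below Cxcr4 without overlap, and Cxcr6, Ccr7, Cxcr3 and Cxcr2 again overlapped with their neighbours.

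Several of these genes are neighbours. Ccr9, Cxcr6, Xcr1, Ccr1, Ccr3 and Ccr2 start within 335 kb of each other on chromosome 9. Of the 4 that were tested, 3 were called higher and 0 lower, by limma, with 0 lower also at an unadjusted p under 0.05, and the exception was Ccr1. Cxcr6 and Ccr3 passed the filter only through cxC26 IL6KOs1 and so could only be called higher, which leaves Ccr2 and Ccr1 as the receptors of the region tested in both directions. Beside them, 13 other tested genes within 1 Mb of Ccr2 had a median log2 fold change of 0.03, with 3 called higher and 1 lower. Within 5 Mb the medians were 0.30 around Ccr1 (60 genes), 0.26 around Ccr2 (58 genes) and 0.27 around Cxcr6 (61 genes). Around Cx3cr1, on the same chromosome, the median was 0.26 (70 genes), and over chromosome 9 it was 0.02. These windows include neighbouring receptors, and the part of this in any receptor's value was not tested. The median of all tested genes was 0.00 (-0.00289), and 90% of them lay between -0.90 and 1.17.

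**Figure D2:**
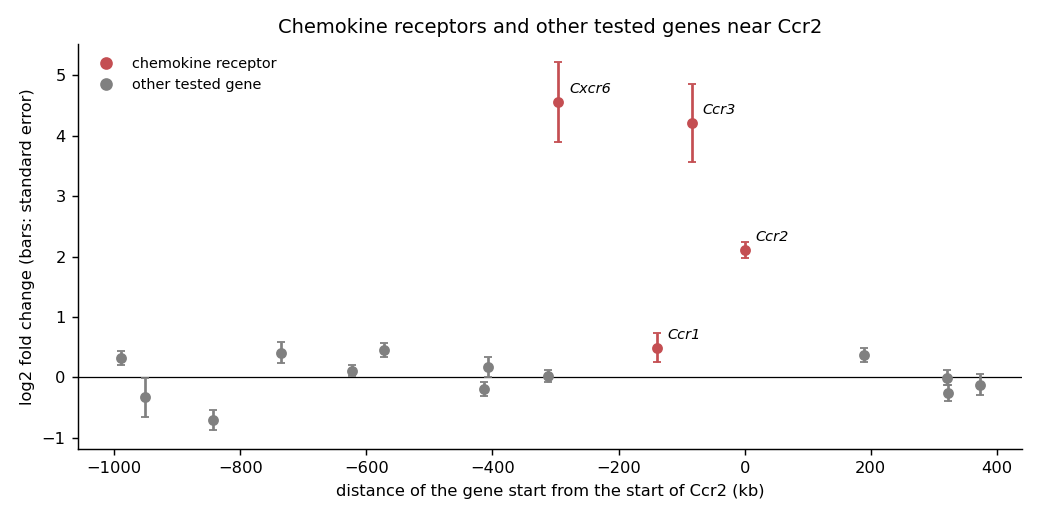
Log2 fold change (vertical axis, cxC26 IL6KOs1 over cxC26 scr, bars are the standard error of the limma fit) of 4 chemokine receptors and 13 other tested genes within 1 Mb of Ccr2, by distance of the gene's start from the start of Ccr2 in kb. Chemokine receptors are red and other genes grey. Cxcr6 (4.56), Ccr3 (4.21) and Ccr2 (2.10) stand above the 13 other genes, which lie between -0.71 and 0.45, and Ccr1 (0.49) lies next to these.

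A list of 13 other chemokine receptors showed a similar split into detected and rare genes. Of 4 that were tested, 2 were called higher and 0 lower by limma (0 lower at an unadjusted p under 0.05, and 0 with limma-voom weights). Over all tested genes 19.1% were called higher and 20.7% lower. The median log2 fold change was 1.61, beside 0.97 for the 6 tested receptors above, and both medians include genes that could only be called higher. Ccr3, the eosinophil receptor, had 10 reads in all of cxC26 scr and 150 in cxC26 IL6KOs1 (log2 fold change 4.21, SE 0.646, adjusted p = 0.00046). Ackr2, a scavenger of inflammatory CC chemokines, had 37 and 207 reads (log2 fold change 2.43, SE 0.348, adjusted p = 0.000307). Like Cxcr6, Ccr3 and Ackr2 reached 1 CPM only in cxC26 IL6KOs1 tumors, and so could only be called higher. Ccr10, a skin homing receptor, had a log2 fold change of -0.65 (adjusted p = 0.113) and Ccrl2, an atypical receptor, of 0.79 (adjusted p = 0.298). Among the 9 under the filter, Xcr1, which marks cross-presenting dendritic cells, was higher without overlap (13 and 42 reads). Ccr4 and Cxcr1 had no read in cxC26 scr and 2 and 1 reads in cxC26 IL6KOs1, and Ccr6, Ccr8, Ccr9, Cxcr5, Ackr1 and Ackr4 overlapped between the groups.

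**Figure D3:**
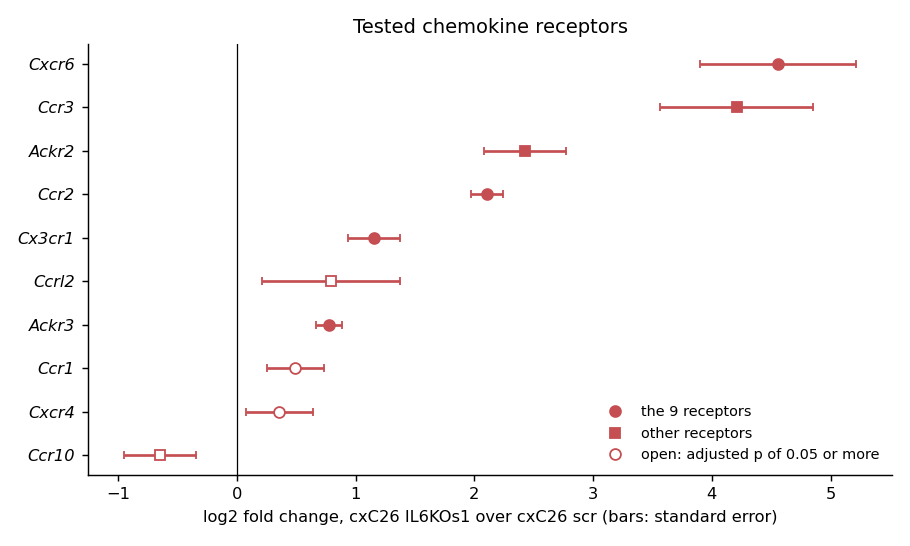
Log2 fold change of 10 tested chemokine receptors (horizontal axis, cxC26 IL6KOs1 over cxC26 scr, bars are the standard error of the limma fit). Circles are the 6 tested of the 9 receptors and squares the others, and filled symbols have an adjusted p under 0.05. The 6 filled symbols lie between 0.77 (Ackr3) and 4.56 (Cxcr6), and Ccr10 alone lies below 0 and is open.

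Marker genes of the cells that carry these receptors moved as well, beside 19.1% of all tested genes called higher and 20.7% lower. All 7 pan-leukocyte genes, with Lcp1 and Ptprc the most abundant, were called higher, and their summed level was 196 to 230 CPM in cxC26 scr and 400 to 777 CPM in cxC26 IL6KOs1. Of 12 monocyte and macrophage genes, led by Lyz2 and C1qa, 11 were called higher and 1 (Mertk) lower, and the summed level was 841 to 1079 CPM and 1597 to 3121 CPM. The 7 neutrophil genes summed to 11.4 to 22.5 CPM and to 16.3 to 29.9 CPM. S100a8 was called higher and Mmp8 lower, the latter with overlap between the groups, and Csf3r and S100a9 did not pass the test. Camp, under the filter, was higher without overlap (9 and 43 reads). Limma without the filter called neither Mmp8 (adjusted p = 0.135) nor Camp (adjusted p = 0.0603). Ly6g, a defining marker, was at 0 reads in cxC26 scr and at 0 to 2 reads in cxC26 IL6KOs1. Lymphocyte markers were scarce in cxC26 scr. The 7 T cell genes summed to 1.38 to 3.52 CPM and to 7.65 to 14.8 CPM, and the 9 cytotoxic lymphocyte genes to 0.975 to 6.24 CPM and to 16.0 to 56.3 CPM. The tested genes of these lists, 3 of 7 and 6 of 9, were all called higher, several of them having passed the filter only through cxC26 IL6KOs1. By mean log2 CPM the highest tested were Lck and Cd2 and, of the cytotoxic genes, Gzmb and Klrk1. The call of the cytotoxic gene Prf1 (3.02, adjusted p = 0.0401) was lost without cxC26 IL6KOs1 tumor 1 (2.14, adjusted p = 0.0958) and with limma-voom weights (0.0573). B cell genes were few (5 genes, summed 1.02 to 2.18 and 2.02 to 8.62 CPM), and the 1 that was tested, Cd79a, did not pass the test. Of those under the filter, Cd79b alone was higher without overlap (28 and 145 reads). In the limma fit without the filter it was called higher (adjusted p = 0.0269), where 7.77% of all genes were called higher.

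Among markers of stroma fewer were called. Of 6 endothelial genes, led by Pecam1 and Cdh5, 0 were called in either direction by limma (0 at an unadjusted p under 0.05, and 0 with limma-voom weights), and the summed level was 113 to 183 CPM in cxC26 scr and 120 to 151 CPM in cxC26 IL6KOs1. Of 8 fibroblast and pericyte genes, led by Col1a2 and Col1a1, 1 was called higher and 2 lower. Of the dendritic cell list, 2 of 3 tested genes, Zbtb46 and Fscn1, were called lower, while 5 genes, Clec9a, Flt3 and Batf3 among them, were under the filter, and 6 of all 8 genes had a higher mean in cxC26 IL6KOs1. Fscn1, an actin bundling protein that is also expressed outside the immune system, had 2198 to 4608 reads per tumor and made up most of the level of that list. The part of these lists in each receptor's difference is described next only as a ratio, and was not tested otherwise.

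To describe each receptor beside the cells that carry it, its log2 CPM was set against the mean log2 CPM of the tested genes of a list in the same tumor. In all 22 such values were computed, and 8 had a two-sided exact permutation p = 0.0286, the smallest possible with 4 against 4 tumors, which becomes 0.0786 after Benjamini-Hochberg adjustment over the 22. None of the 22 passed 0.05 after that adjustment.

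Relative to pan-leukocyte genes, Ccr2 was at -0.36, -0.21, -0.58 and -0.48 in the cxC26 scr tumors and at -0.16, 0.46, 0.72 and 0.65 in the cxC26 IL6KOs1 tumors. All 4 cxC26 IL6KOs1 values were above all 4 of cxC26 scr, with a difference of 0.83 (exact p = 0.0286), and the difference was 0.94 relative to monocyte and macrophage genes (exact p = 0.0286). Ccr1 went the other way. Relative to pan-leukocyte genes it was at 0.19, 0.51, 0.45 and 0.52 in cxC26 scr and at -0.04, -0.26, -0.50 and -0.66 in cxC26 IL6KOs1, a difference of -0.78 (exact p = 0.0286), and relative to monocyte and macrophage genes the difference was -0.67 (exact p = 0.0286). For Cx3cr1 the groups overlapped against both lists, with differences of -0.12 (exact p = 0.657) and -0.01 (exact p = 0.943). The log2 ratio of Ccr1 to Ccr2 within a tumor was 0.83 ± 0.23 in cxC26 scr and -0.78 ± 0.65 in cxC26 IL6KOs1 (SD, n = 4 each, exact permutation p = 0.0286, adjusted p = 0.0714 over 5 receptor pairs).

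Relative to pan-leukocyte genes Cxcr4 differed by -0.92 (exact p = 0.0286) and Ackr3 by -0.50 (exact p = 0.0571). Against endothelial genes, none of which was called, Ackr3 differed by 0.76 (exact p = 0.0286) and Cxcr4 by 0.35 (exact p = 0.486), and against fibroblast and pericyte genes the differences were 0.76 (exact p = 0.0857) and 0.34 (exact p = 0.571). The log2 ratio of Cxcr4 to Ackr3 differed by -0.42 (exact p = 0.2).

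Relative to pan-leukocyte genes Cxcr6 was higher by 3.28 in cxC26 IL6KOs1 (exact p = 0.0286), a value that became 0.77 (exact p = 0.143) with 1 CPM added before the logarithm. Ratios to the T cell genes are not given, since Cxcr6 and 2 of the 3 tested T cell genes, Cd3g and Cd2, passed the filter only through cxC26 IL6KOs1. Ccr7 differed by 2.43 from the dendritic cell list (exact p = 0.0286), in which Zbtb46 and Fscn1, both called lower, are 2 of the 3 genes used. The difference of Ccr7 from pan-leukocyte genes was 0.31 (exact p = 0.514), and there the groups overlapped. Cxcr2 differed by -0.49 from the neutrophil genes (exact p = 0.371) and its ratio to Ccr2 by -2.49 (exact permutation p = 0.0286, adjusted p = 0.0714 over 5 pairs).

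**Figure D4:**
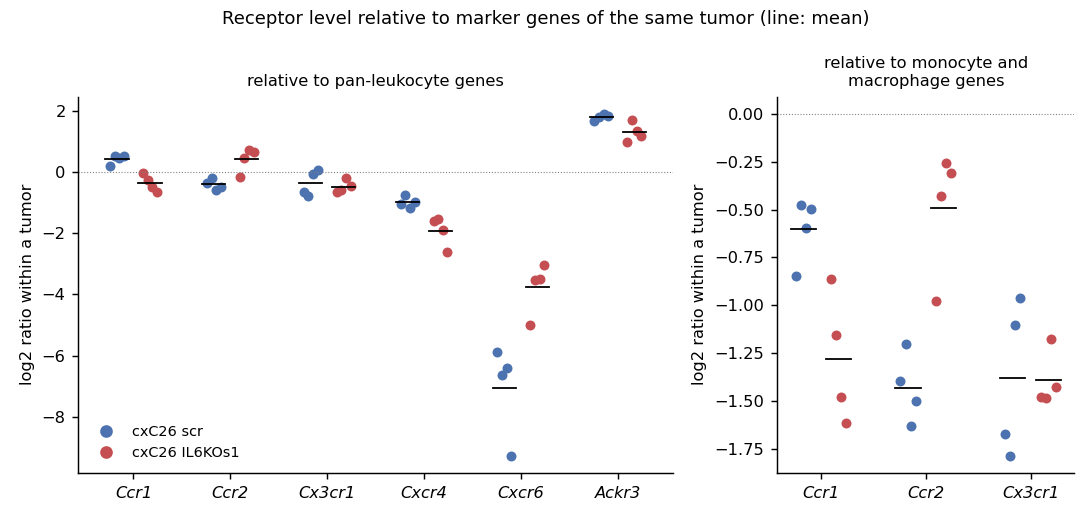
Level of 6 receptors relative to the mean of the 7 pan-leukocyte genes (left) and of 3 receptors relative to the 12 monocyte and macrophage genes (right), as a log2 ratio within a tumor on the vertical axis, with 1 point per tumor (blue cxC26 scr, red cxC26 IL6KOs1) and a line at the mean of 4. Ccr2 lies above its cxC26 scr values in all 4 cxC26 IL6KOs1 tumors and Ccr1 below them, whereas Cx3cr1 overlaps.

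The ligands were examined next, as 21 chemokines listed as ligands of the 9 receptors, and binding was not measured. Each was grouped under 1 receptor, or under Cxcr4 and Ackr3 together, although several bind more than that, such as Ccl7, which also binds Ccr1. Of 17 that were tested, 9 were called higher and 0 lower by limma (0 lower at an unadjusted p under 0.05, and 0 with limma-voom weights), with a median log2 fold change of 1.01. Over all tested genes 19.1% were called higher and 20.7% lower. By this grouping under receptors, the ligands under Ccr2 and Cxcr3 were all called higher, as were the single ligands of Cxcr6 and Cx3cr1, and those tested under Ccr1 and Cxcr2 were not called. Of the ligands called, Cxcl11 passed the filter only through cxC26 IL6KOs1, and Ccl8, Cxcl9 and Cxcl10 lost their calls in several alternatives.

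Among the ligands grouped under Ccr2, Ccl2 was the most abundant, at 4.77 to 5.69 log2 CPM in cxC26 scr and 6.70 to 7.21 in cxC26 IL6KOs1 (log2 fold change 1.74, SE 0.194, adjusted p = 5.9e-05). Ccl7 (1.34, SE 0.249, adjusted p = 0.00143) and Ccl12 (1.22, SE 0.179, adjusted p = 0.000349) rose without overlap between groups. Ccl8 overlapped between groups and passed narrowly (1.23, SE 0.429, adjusted p = 0.0387). Its call was lost when any of cxC26 scr tumors 3 and 4 or cxC26 IL6KOs1 tumors 1 and 2 was left out, with adjusted p up to 0.113.

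The Cxcr3 ligands were the most variable. Cxcl9 lay between -0.92 and 0.60 log2 CPM in cxC26 scr and between 0.76 and 7.55 in cxC26 IL6KOs1, where tumor 1 held the highest value (log2 fold change 3.42, SE 1.14, adjusted p = 0.0325). Without that tumor the log2 fold change of Cxcl9 was 1.93 (adjusted p = 0.0056), and its call was lost without cxC26 scr tumor 1, 3 or 4 (adjusted p up to 0.0779) and in 4 other alternatives, namely no filter, no trend, limma-voom weights and a pseudocount of 1 CPM (adjusted p up to 0.175). Cxcl10 had a log2 fold change of 1.95 (SE 0.617, adjusted p = 0.0258), overlapped between groups and lost its call without cxC26 scr tumor 2, 3 or 4 or cxC26 IL6KOs1 tumor 1 or 4 (adjusted p up to 0.0788). Cxcl11 was called in each of these fits and rose by 2.81 on the log2 scale (SE 0.585, adjusted p = 0.00293), and by 2.13 without cxC26 IL6KOs1 tumor 1. It had 19 reads in all of cxC26 scr and 220 in cxC26 IL6KOs1, up to 155 of them in a single tumor. Only cxC26 IL6KOs1 tumors reached 1 CPM of Cxcl11, so among tested genes it could only be higher.

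Cx3cl1, the fractalkine that binds Cx3cr1, rose evenly, from 3.89 to 4.16 log2 CPM in cxC26 scr to 4.99 to 5.37 in cxC26 IL6KOs1 (log2 fold change 1.21, SE 0.113, adjusted p = 1.75e-05). Cxcl16, the ligand of Cxcr6, had a log2 fold change of 0.91 (SE 0.239, adjusted p = 0.0107) and 0.61 without cxC26 IL6KOs1 tumor 1 (adjusted p = 0.00164). Cxcl12, which Cxcr4 and Ackr3 share, was not called (0.56, SE 0.252, adjusted p = 0.0968), but was called without cxC26 scr tumor 1 (adjusted p = 0.0161).

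The ligands grouped under Ccr1 did not pass the test, with log2 fold changes of 1.01 for Ccl3 (adjusted p = 0.214), 0.43 for Ccl5 (0.387), 0.33 for Ccl6 (0.214) and 0.20 for Ccl9 (0.470). The same held for the neutrophil attractants that were tested, Cxcl1 (-0.17, adjusted p = 0.769), Cxcl5 (0.54, adjusted p = 0.237) and Ppbp (-0.33, adjusted p = 0.726), although Cxcl5 was called higher without cxC26 IL6KOs1 tumor 1 (0.94, adjusted p = 0.00496). Cxcl2 and Cxcl3 were below the filter, as were the Ccr7 ligands, with 2 reads of Ccl21a and 0 of Ccl19 over the 8 tumors.

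**Figure D5:**
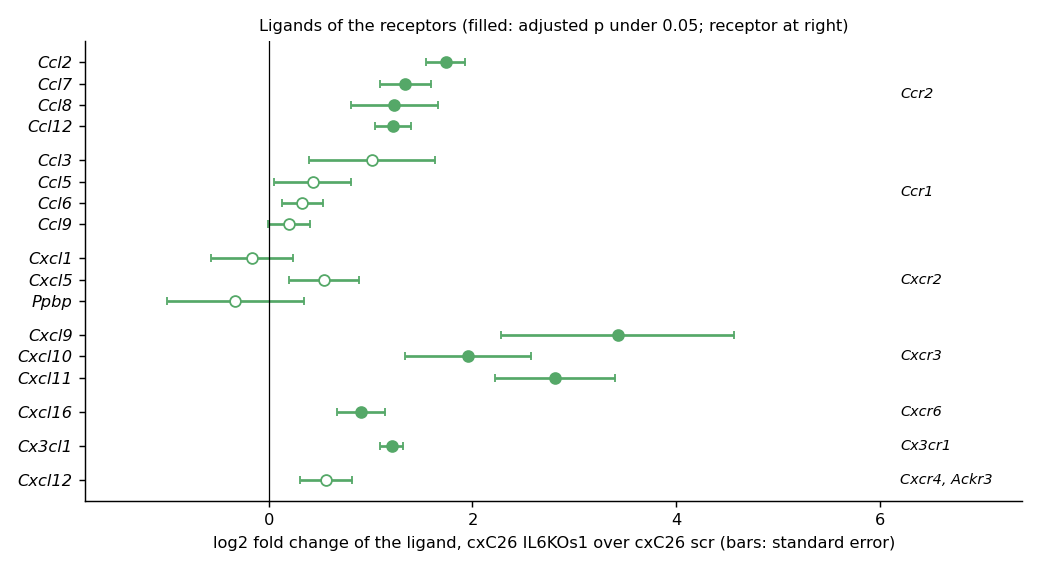
Log2 fold change of the 17 tested ligands (horizontal axis, cxC26 IL6KOs1 over cxC26 scr, bars are the standard error of the limma fit), grouped under the receptor named at the right, with filled points for an adjusted p under 0.05. All tested ligands under Ccr2, Cxcr3, Cxcr6 and Cx3cr1 are filled and lie between 0.91 (Cxcl16) and 3.42 (Cxcl9), and those under Ccr1, Cxcr2, and Cxcr4 with Ackr3 are open.

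Downstream of the receptors, 20 signalling genes were found of 22 names listed, 2 of which are older names of genes already counted. Limma called 11 higher, 2 lower and 7 not, with a median log2 fold change of 0.60. Of all tested genes, 19.1% were called higher and 20.7% lower. Several of the genes called higher are used mainly by leukocytes. Rac2, the haematopoietic Rac GTPase (1.86, SE 0.158, adjusted p = 8.74e-06), Pik3r5 and Pik3cg, a regulatory and the catalytic subunit of the G-protein-activated PI3-kinase (1.65 and 1.08), and Dock2 and Elmo1, which activate Rac (1.32 and 1.16), all rose without overlap between the groups.

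Among the genes that switch receptors off, the receptor kinases Grk3 (1.23), Grk5 (1.00) and Grk2 (0.40) rose, and Grk6 did not (-0.01, adjusted p = 0.962). The 2 arrestins moved in opposite directions, with Arrb2 at 0.75 (SE 0.119, adjusted p = 0.000547) and Arrb1 at -0.74 (SE 0.136, adjusted p = 0.00139). Rgs16, which shortens the activity of inhibitory G proteins, fell from 8.80 to 9.08 log2 CPM in cxC26 scr to 7.05 to 7.54 in cxC26 IL6KOs1 (log2 fold change -1.67, SE 0.118). Plcb3 (0.44) and the G-protein subunit Gnai3 (0.24, adjusted p = 0.0314) rose by small amounts, and the call of Gnai3 was lost in 6 of the 8 fits that left out 1 tumor (adjusted p up to 0.0713). Gnai2, another inhibitory G-protein subunit, was not called (0.21, adjusted p = 0.224), nor were Plcb2, Rgs1, Rgs2, Pik3r6 and Prex1.

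The genes whose pattern over the 8 tumors was most like that of a receptor were found by the root mean square (RMS) difference of log2 CPM, after centring each gene on its mean. For Ccr2 they were Gpr183, a receptor for oxysterols (RMS 0.184), Dusp22 (0.202) and Rac2 (0.217). Ackr3 was followed most closely by Trib2 (RMS 0.0579), Vamp8 (0.0651) and Ptpdc1 (0.0706), which all shared its modest and even rise. For Cx3cr1 they were Susd3, Sla and Cpeb3 (RMS 0.121 to 0.156). In both Ccr1 and Cxcr4 the highest tumor was cxC26 IL6KOs1 tumor 1, and both had Egflam among their nearest genes (RMS 0.128 and 0.165). Lst1 was the nearest to Ccr1 (0.0805), with H2-M3 the next (0.114), and Eaf2 and H1f2 stood near Cxcr4 (0.175 and 0.199). For Cxcr6 no gene was as close, the nearest being Dcstamp, a fusion protein of osteoclasts and macrophages (0.629), followed by Cngb1 (0.799) and Mmp9, a matrix protease (0.857). The RMS is not scaled to the range of a receptor, so it does not compare closeness between receptors. Cxcr6 spanned 7.44 log2 units, with 0 to 5 reads per cxC26 scr tumor, and Ackr3 spanned 1.23. These values describe likeness over 8 tumors that share the group difference, and no test was made.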

How the data were processed

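Bulk tumor RNA was sequenced from 4 cxC26 scr and 4 cxC26 IL6KOs1 tumors, grouped by their titles. The authors trimmed reads with Trimmomatic, aligned them with HISAT2 to mm10 (GRCm38), counted them per gene with featureCounts and deposited log2 CPM values from limma-voom, with bcl2fastq 2.17 upstream. The annotation, strand setting and other versions are not given in the sources used here. Whole reads were recovered from the offset of 0.5 reads in 100% of values (within 0.01), giving 14158989 to 17048062 reads per tumor, and intervals on them cover counting error only.

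Genes that reached 1 CPM in 4 or more tumors were tested with limma 3.58.1 in R 4.3.3 (lmFit, eBayes with a mean-variance trend, no covariates) on the deposited log2 values and adjusted by the Benjamini-Hochberg method over 13262 genes, with a threshold of 0.05. For single values a two-sided exact permutation test was used, over the 70 divisions of 8 tumors 4 and 4 (scipy 1.17.1). The 9 receptors and all gene lists were chosen with earlier results of these data known. The genes named were all 9 receptors in every tumor, the other receptors and ligands by value where called or at 1 CPM and by count otherwise, the called and the 3 most abundant signalling genes, the 2 most abundant genes of each marker list and those without reads, the 3 genes most like each tested receptor that spans at least 1 log2 unit, Il6, and receptor neighbours within 1 Mb. Some genes outside this rule were named after their values were seen, namely Fyco1, which spans Cxcr6, markers that were called or under the filter (Mertk, S100a8, Mmp8, Zbtb46, Cdh1, Cdx2, Prf1, Cd3g, Cd79b, Epcam, Krt8, Vil1, Clec9a, Flt3 and Batf3) and Grk6 and the other signalling genes not called. The same holds for Camp, which was under the filter, and S100a9, which was not called. Exon lengths came from GENCODE M21 and positions and promoters from RefSeq on GRCm38.p6. The fit was tested on simulated reads before use. Replicates of a group differed by more than sampling noise (chi-square per degree of freedom 5.41 to 35.2), and each tumor is from a separate mouse.

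The 17 alternatives tried were no filter, a filter at a mean of 3 log2 CPM, quantile normalization, median re-centring, a block for the replicate number, omission of each tumor, no trend, limma-voom weights, a pseudocount of 1 CPM and a 2-fold threshold. Same-numbered tumors are different mice. An item withheld from this text is not reported here.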

Additional observations from a re-analysis of the deposited data

Results flagged for a closer look

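In a group of 4 tumors, a value was singled out when its gap to the nearest of the others was a larger share of the group's range than chance gives in about 1 of 20 groups. This was so for 9 of 174 groups, with 8.7 expected, and 3 of the 9 concern cxC26 IL6KOs1 tumor 1. In that tumor Ccr1 was at 6.16 log2 CPM beside 4.89 to 5.02 in the other 3, Cxcl16 was at 6.94 beside 5.67 to 5.82, and the mean log2 CPM of the cytotoxic lymphocyte genes was at 2.62 beside 0.95 to 1.21. In cxC26 scr tumor 2 the cytotoxic lymphocyte genes were at -1.07 beside -3.35 at the lowest of the others, Cxcl1 was at 2.24 log2 CPM beside 0.61 to 0.72, and Cxcr2 relative to neutrophil genes was at -1.81 beside -2.41 to -2.32. Ccl6 was at 5.97 log2 CPM in cxC26 IL6KOs1 tumor 2 beside 5.18 to 5.28, Grk6 was at 6.74 in cxC26 IL6KOs1 tumor 3 beside 6.99 to 7.03, and Ccr7 relative to pan-leukocyte genes was at -6.10 in cxC26 scr tumor 4 beside -5.10 to -4.91.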

How the results depend on the processing

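Ccr2, Cx3cr1 and Ackr3 were called higher in every alternative, apart from Ackr3 with a 2-fold threshold, with log2 fold changes of 2.04 to 2.21, 1.03 to 1.32 and 0.69 to 0.85. Cxcr6 was called wherever it was tested (1.99 to 4.92) and was not tested with the filter at a mean of 3 log2 CPM, and Cxcr3 was called only without the filter. Ccr1 (0.19 to 0.62) and Cxcr4 (0.06 to 0.62) were called in none. Of the other receptors 0 were called higher with the filter at a mean of 3 log2 CPM, which leaves out Ccr3 and Ackr2, and 1 was called lower with quantile normalization (Ccr10). With a 2-fold threshold 829 genes were higher and 521 lower, and so were 7 and 1 of the signalling genes and 3 of the 9 receptors. With 1 CPM added before the logarithm, 3 values changed sign, namely Ccr7 (-0.42) and Cxcr3 (-0.59) relative to pan-leukocyte genes and Cx3cr1 relative to monocyte and macrophage genes (0.038), and Ccr1 relative to monocyte and macrophage genes had an exact permutation p = 0.0571. The pseudocount compresses low values by construction. Leaving out 1 tumor at a time left 4 of the 9 receptors and 6 to 9 of the ligands called higher, and no filter and no trend each left 6, without Ccl8, Cxcl9 and Cxcl10. With the replicate block, 2477 genes were called higher and 2688 lower, and 4 of the 9 receptors. The numbers do not pair the tumors, which came from different mice, and the deviations of same-numbered tumors correlated by -0.06 to 0.06. Ccr7, Cxcr2 and Cxcr3 are limited by depth.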
